A study of Mus musculus with 6 samples.

Results

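Autophagy wraps cytoplasm in a double membrane and delivers it to the lysosome. The genes described here encode its core machinery and the receptors that choose cargo, 39 genes in all. The list goes by symbol, with no threshold on a measured value, though it was drawn up when results of these data were already known. Of these, 37 had a probe set annotated to that gene alone, out of 22180 genes with such a probe set in the series, and where a gene had 2 the one with the higher mean over all arrays was used. Optn and Bnip3l had none and were not analysed here.

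The RNA came from the ventral midbrain of male mice 2 months of age and was measured on 6 Affymetrix arrays, 3 labelled Bach1 knockout and 3 labelled wild type. The labels give neither strain nor allele, and they list no treatment. BACH1 is a heme-binding repressor that competes with NRF2 at antioxidant genes, and the comparison asks which autophagy transcripts differ between the genotypes. Nothing in the labels ties each array to its own mouse, so the p-values reflect only the spread among these arrays, which may be technical.

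Bach1 itself checked the labels poorly: its log2 level was 7.59, 7.68 and 7.70 on knockout-labelled replicates 1 to 3 and 7.46, 7.59 and 7.57 on wild-type replicates 1 to 3, which is not lower under the knockout label, and a probe set outside a deleted part checks nothing. Hmox1, the heme oxygenase gene that BACH1 represses, was higher on the knockout-labelled arrays (log2 fold change 1.95, 95% interval 1.69 to 2.21; limma, adjusted p = 0.0181). Directions below follow the labels. The dopamine synthesis gene Th had mean log2 levels of 11.30 and 11.16 on the knockout-labelled and wild-type arrays. The dopamine transporter gene Slc6a3 had 12.04 and 11.89. These 2 dopaminergic markers were thus present in both groups, and the full list of 8 is described below. Array medians lay between 5.58 and 5.69, and the number of arrays limits the precision. In whole tissue, fewer cells of a type and less RNA per cell cannot be told apart.

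As background, the ULK kinase complex starts the process, and a lipid kinase complex built on Beclin 1 then marks the site of the new membrane. Lipid carriers and ATG9 vesicles enlarge that membrane, 2 linked conjugation systems attach ATG8 proteins (the LC3 and GABARAP family) to it, and receptors such as p62 hold cargo against ATG8. Neurons depend on this pathway because they cannot dilute damaged proteins and mitochondria by dividing, and much of its control acts on the proteins, which RNA levels do not show. In other systems NRF2, TFEB and FOXO3 are known to raise transcription of some of these genes.

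No member differed between the genotypes past the test. Limma called 0 of the 37 genes at a Benjamini-Hochberg adjusted p under 0.05, where 0.00726% of all 41345 probe sets were called, and the smallest adjusted p of a member was 0.695, for Atg2a. At an unadjusted p under 0.05 the count was again 0, against 6.51% of all 22180 genes. The log2 fold changes, knockout-labelled minus wild type, ran from -0.21 for Atg12 to 0.083 for Gabarapl2, so the widest difference was 1.16-fold. That of Atg12 rested on single arrays: it was -0.063 without knockout-labelled replicate 3 and -0.35 without knockout-labelled replicate 1. The 95% intervals had a median half-width of 0.20 on the log2 scale, and 36 of 37 lay wholly within a 1.5-fold change either way (0.58 on the log2 scale), Atg12 being the exception. All 37 lay within a 2-fold change.

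**Figure D1:**
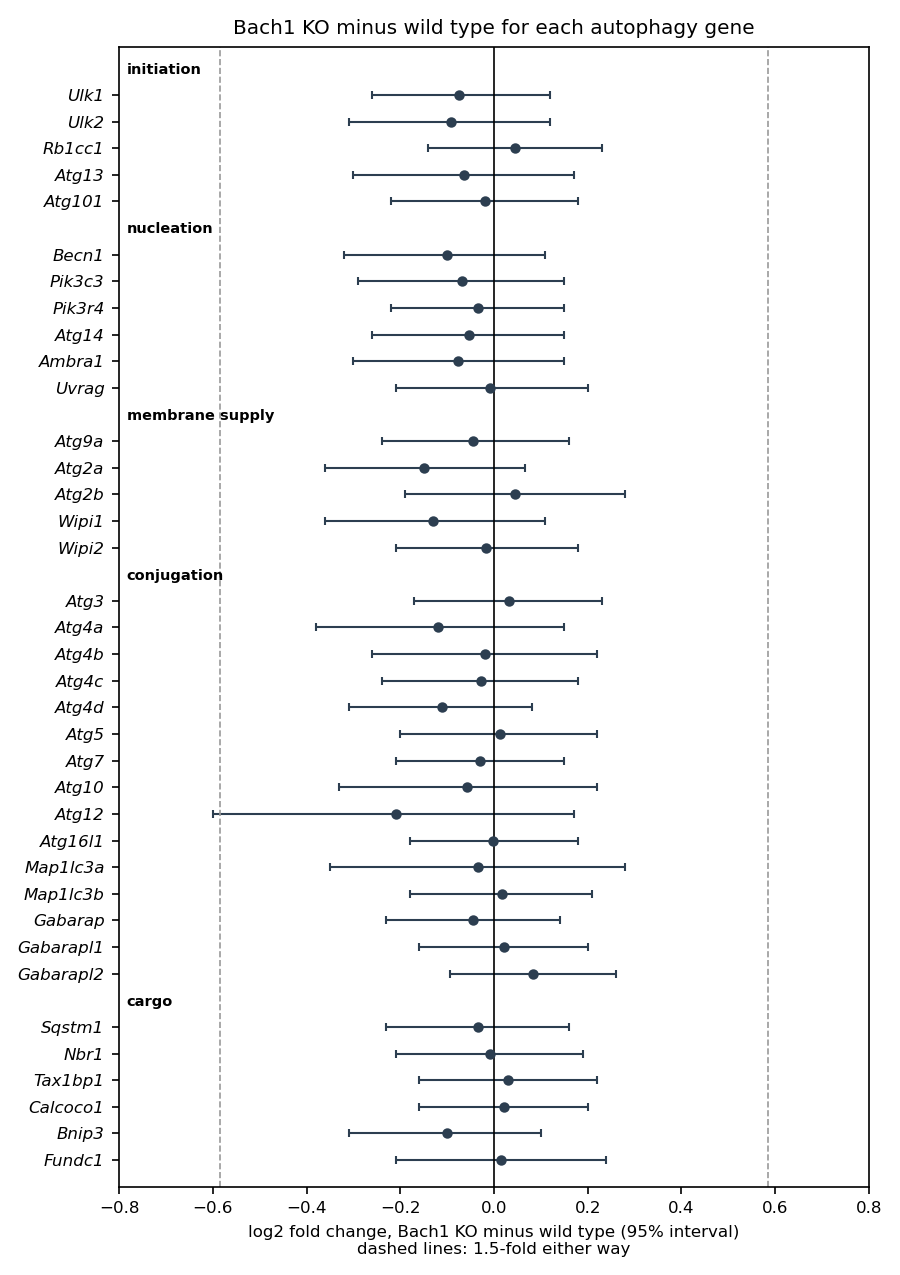
Log2 fold change (horizontal axis, knockout-labelled minus wild type) of the 37 measured autophagy genes, grouped by step, with 95% limma intervals from 3 against 3 arrays; dashed lines mark 1.5-fold. Every interval spans 0, and that of Atg12, from -0.60 to 0.17, is the one that crosses a dashed line.

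Members with a lower mean under the knockout label outnumbered those with a higher one, 27 to 10, but the split differed with brightness and scaling. A higher mean was found for 27% of members, for 46.9% of all genes, and for 33.2% of the 8909 genes whose mean level lay in the members' own range of 7.20 to 12.44. The median log2 fold change was -0.034 over the members, -0.035 over the genes in that range and -0.0098 over all genes. After renewed quantile normalization 9 of the 27 lower members turned, so that 19 of 37 were higher, with a median of 0.0073. Those 9 were Atg101, Pik3r4, Uvrag, Wipi2, Atg4b, Atg4c, Atg7, Atg16l1 and Nbr1. Centring each array on its median shifts the fold change of every gene by the same amount. The median over all genes moved from -0.0098 to -0.057. After this shift 1 member, Gabarapl2, was higher, and the median over the members was -0.081. Without knockout-labelled replicate 3 the number higher was 6, and without knockout-labelled replicate 2 it was 15. The signs of these members, and the split for the pathway as a whole, are therefore given as values and not as directions of change.

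**Figure D2:**
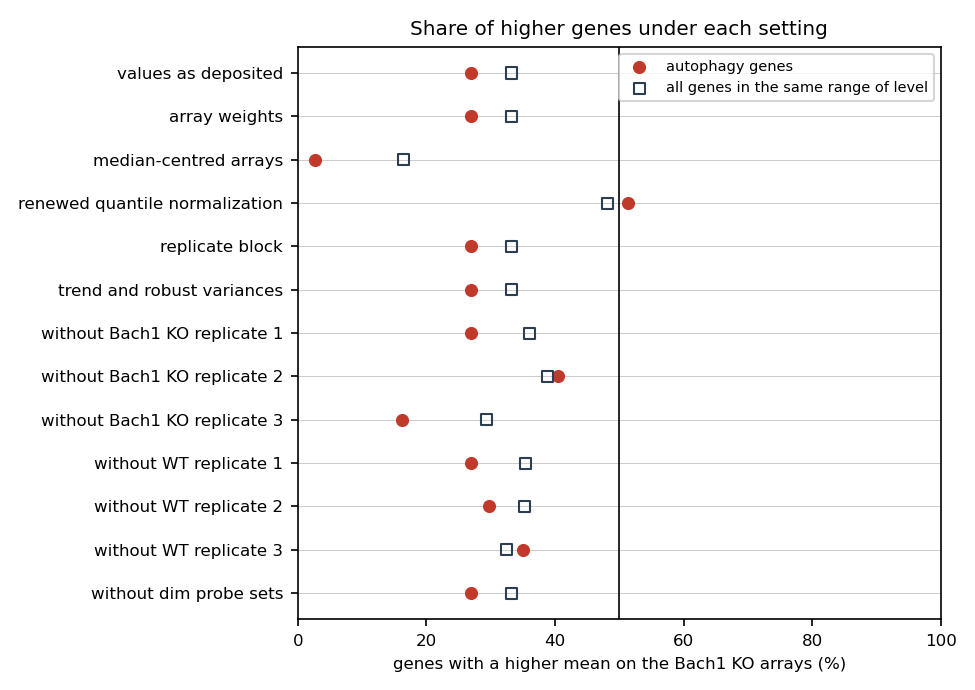
Share of genes (horizontal axis, in percent) with a higher mean on the knockout-labelled arrays under each setting (rows), for the autophagy genes (filled circles) and for all genes in the same range of mean level (open squares). The 2 shares are 2.7% and 16.5% with median-centred arrays, 27% and 33.2% as deposited, and 51.4% and 48.2% after renewed quantile normalization.

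Promoter letters of some members are shown because BACH1 and NRF2 read antioxidant response elements and TFEB reads E-boxes. RefSeq promoters (GRCm38.p6, 250 bases before to 50 after the start) were matched for 32 of the 39 genes by symbol. The element core TGACNNNGC, on either strand, was in 4 of the 32 (Ulk2, Atg13, Map1lc3b and Tax1bp1), or 12.5%, against 14% of all 27025 genes with a promoter. The core TGAGTCA, on either strand, was in 0 of 32, against 5.95% of all. The E-box CACGTG, which reads the same on both strands, was in 5 (Atg14, Atg3, Atg5, Atg7 and Bnip3), or 15.6%, against 8.09%, and its longer form TCACGTGA, which overlaps it, was in Atg3 alone, against 1.12% of all. Such a match describes these letters and shows no binding. The windows below are given 5′ to 3′ on the gene's strand, with up to 40 bases either side, ending before the start site, and the match is in capitals. For Atg13 the capitals are the core on the opposite strand. The Atg3 capitals mark the longer form. A further CACGTG in that window, from 94 bases before the start, stands in lower case. The Atg14 and Map1lc3b matches do not lie wholly before the start and are not printed.

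Ulk2, chr11:61855093-61855149, minus strand: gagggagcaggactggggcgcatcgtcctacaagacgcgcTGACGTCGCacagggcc
Tax1bp1, chr6:52713920-52714008, plus strand: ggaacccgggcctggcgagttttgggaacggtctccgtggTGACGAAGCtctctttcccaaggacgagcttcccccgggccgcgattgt
Atg13, chr2:91710786-91710842, minus strand: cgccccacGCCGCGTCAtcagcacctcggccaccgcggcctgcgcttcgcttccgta
Atg3, chr16:45158717-45158804, plus strand: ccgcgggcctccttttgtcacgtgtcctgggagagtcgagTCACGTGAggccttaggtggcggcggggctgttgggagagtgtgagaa
Atg5, chr10:44268285-44268338, plus strand: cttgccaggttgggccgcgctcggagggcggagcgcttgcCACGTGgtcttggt
Atg7, chr6:114670924-114671009, plus strand: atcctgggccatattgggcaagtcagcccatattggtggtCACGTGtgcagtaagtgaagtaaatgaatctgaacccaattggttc
Bnip3, chr7:138909569-138909654, minus strand: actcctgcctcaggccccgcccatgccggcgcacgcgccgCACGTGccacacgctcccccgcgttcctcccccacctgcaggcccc

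Genes of the initiation complex had mean log2 levels between 8.13 and 10.63 over all arrays and 0 of them passed the test. A level on this scale depends on the probes as well as on the transcript, so levels are compared within a gene and not between genes. Ulk1, the kinase that starts the process, was at 9.69, 9.60 and 9.67 on knockout-labelled replicates 1 to 3 and at 9.78, 9.73 and 9.67 on wild-type replicates 1 to 3. The groups overlapped, at 9.65 ± 0.047 against 9.72 ± 0.057 (SD, n = 3), with a log2 fold change of -0.074 (95% interval -0.26 to 0.12; limma, adjusted p = 0.825). Ulk2, its paralog and one of the genes whose promoter is shown above, read 8.94, 8.85 and 8.85 against 9.05, 8.86 and 9.02. It had the lowest fold change of the step, -0.092 (95% interval -0.31 to 0.12), and overlapped because wild-type replicate 2 lay with the knockout-labelled arrays. The scaffold gene Rb1cc1 (FIP200) had the highest, 0.044 (95% interval -0.14 to 0.23), from 8.84, 8.76 and 8.88 against 8.82, 8.78 and 8.75, and its value was -0.0031 with median-centred arrays. Atg13, the adaptor that joins kinase and scaffold, was at -0.064, and Atg101, which stabilizes ATG13, at -0.02, so 4 of the 5 genes lay below 0, or 3 after renewed quantile normalization. The step's median was -0.064, and it was -0.011 without wild-type replicate 2.

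All 6 nucleation genes had fold changes below 0, or 4 of 6 after renewed quantile normalization, where Pik3r4 (0.0073) and Uvrag (0.031) turned, and 0 passed the test. Their median log2 fold change was -0.062, and it was -0.022 after that normalization. Becn1, which encodes Beclin 1 and is the gene most often taken to stand for this step, had the lowest value. It read 8.14, 8.21 and 8.30 on the knockout-labelled arrays and 8.30, 8.42 and 8.25 on the wild-type arrays. Knockout-labelled replicate 3 lay inside the wild-type range, and the log2 fold change was -0.10 (95% interval -0.32 to 0.11; limma, adjusted p = 0.781). The lipid kinase gene Pik3c3 (VPS34) was at -0.069 and its regulatory subunit gene Pik3r4 (VPS15) at -0.035. Atg14, which directs the kinase to autophagosome formation, was at -0.054, and Ambra1, a Beclin 1 partner, at -0.076. Uvrag, the subunit that takes the place of ATG14 in an endosomal form of the complex, read 8.24, 8.22 and 8.34 against 8.19, 8.30 and 8.33, a fold change of -0.0083 (95% interval -0.21 to 0.20) with interleaved arrays.

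Among the 5 membrane supply genes the arrays of Atg2a separated by genotype, without passing the test. Atg2a encodes a lipid transfer protein that feeds the growing membrane. Its log2 level was 8.48, 8.33 and 8.41 on the knockout-labelled arrays and 8.52, 8.65 and 8.49 on the wild-type arrays. All 3 knockout-labelled values lay below all 3 wild-type values, by a narrow margin at 8.48 and 8.49, and the means were 8.41 ± 0.074 and 8.55 ± 0.085 (SD, n = 3). The log2 fold change was -0.15 (95% interval -0.36 to 0.066; limma, adjusted p = 0.695). Its paralog Atg2b had the highest value of the step, 0.045 (95% interval -0.19 to 0.28), from 8.56, 8.56 and 8.79 against 8.57, 8.64 and 8.56. That value rested on knockout-labelled replicate 3: without it the fold change was -0.032, and with median-centred arrays it was -0.0017. A difference between the paralogs was not tested. Atg9a, the lipid scramblase of the vesicles that seed the membrane, read 9.36, 9.40 and 9.30 against 9.41, 9.47 and 9.31, a fold change of -0.044 (95% interval -0.24 to 0.16). The phosphoinositide-binding genes Wipi1 and Wipi2 were at -0.13 and -0.016, the first with its lowest reading, 7.81, on knockout-labelled replicate 2.

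**Figure D3:**
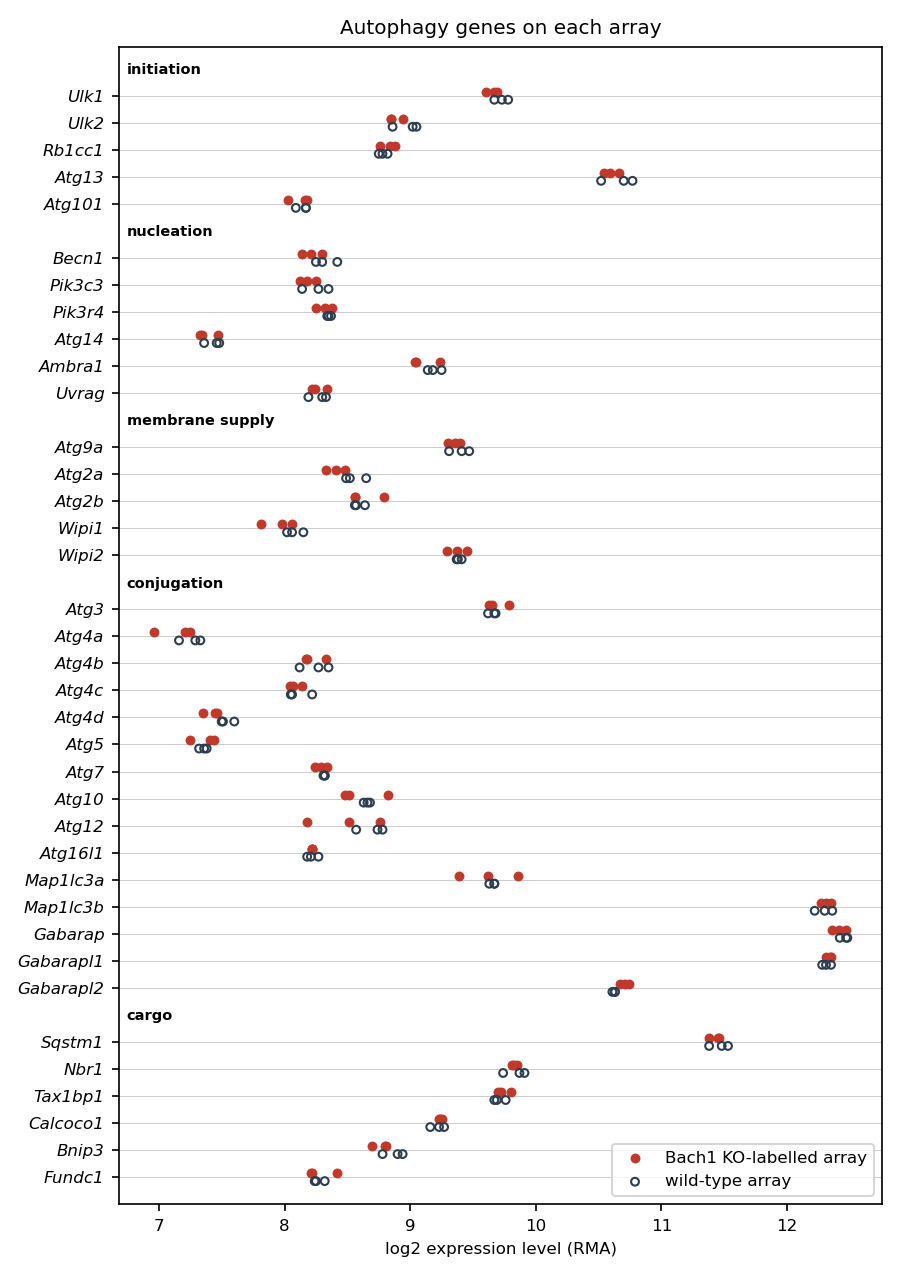
Log2 expression level (horizontal axis) of each measured autophagy gene on the 3 knockout-labelled arrays (filled) and the 3 wild-type arrays (open), grouped by step. The 2 sets of points interleave for most genes, are apart for Atg2a, Atg4d and Gabarapl2, and spread most for Atg12 and Map1lc3a.

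Members whose groups did not overlap were few. The knockout-labelled values lay above all wild-type values for 1 member, Gabarapl2, while 6.36% of all genes separated that way. They lay below for 2, Atg2a and Atg4d, while 7.94% of all genes did. The shares of members are thus no larger than those of all genes. Shares over genes in the members' range of level were not counted.

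The conjugation step has the most members, 15, of which 5 lay above and 10 below 0, with a median log2 fold change of -0.027 and 0 called. Renewed quantile normalization moved that median to 0.015 and median-centred arrays to -0.074. Atg7, the activating enzyme shared by both conjugation systems, read 8.24, 8.29 and 8.34 against 8.32, 8.31 and 8.32. Its fold change was -0.03 (95% interval -0.21 to 0.15), with a sign that turned after renewed quantile normalization (0.012). Atg5, which is joined to ATG12 and acts with ATG16L1 as the ligase for ATG8, read 7.25, 7.44 and 7.41 against 7.32, 7.38 and 7.36. The wild-type arrays lay inside the knockout-labelled range, and the fold change was 0.013 (95% interval -0.20 to 0.22), or -0.034 with median-centred arrays. Atg16l1 read 8.22 on each of the 3 knockout-labelled arrays and 8.18, 8.21 and 8.27 on the wild-type arrays, the closest means of any member (-0.0023).

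Atg12 varied most between arrays of all members, over a range of 0.59. It encodes the ubiquitin-like protein that is joined to ATG5. Its level was 8.76, 8.51 and 8.18 on knockout-labelled replicates 1 to 3 and 8.74, 8.78 and 8.57 on the wild-type arrays. Replicate 1 lay among the wild-type arrays and replicate 3 far below them, giving means of 8.48 ± 0.29 and 8.70 ± 0.11 (SD, n = 3) and a log2 fold change of -0.21 (95% interval -0.60 to 0.17; limma, adjusted p = 0.748). The conjugating enzyme genes Atg3 (for ATG8) and Atg10 (for ATG12) were at 0.033 and -0.057.

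The ATG4 proteases, which trim ATG8 proteins before conjugation and release them from membrane afterwards, had a median of -0.069 over 4 genes, all of them below 0, where Atg4b and Atg4c turned after renewed quantile normalization. Atg4d separated by genotype, at 7.45, 7.35 and 7.46 on the knockout-labelled and 7.50, 7.60 and 7.51 on the wild-type arrays. Its means were 7.42 ± 0.06 and 7.53 ± 0.056 (SD, n = 3), and the fold change of -0.11 did not pass (95% interval -0.31 to 0.082; limma, adjusted p = 0.739). Atg4a was at -0.12, Atg4b at -0.02 and Atg4c at -0.027.

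The ATG8 genes themselves, whose products coat the membrane and bind receptors, varied little in 4 of 5 cases on the probe sets used. The ranges of these 4 over the arrays were 0.075 to 0.14, on bright probe sets with mean levels of 10.67 to 12.44. Map1lc3a had a range of 0.47 at a mean level of 9.64. Whether the range goes with brightness was not tested. Map1lc3b, the LC3 gene most used as a marker of autophagosomes, read 12.35, 12.27 and 12.31 on the knockout-labelled arrays and 12.36, 12.22 and 12.30 on the wild-type arrays. Its fold change was 0.017 (95% interval -0.18 to 0.21; limma, adjusted p = 0.97), or -0.03 with median-centred arrays. Gabarapl1 had the smallest range of any member over all arrays, 0.075, at 12.34, 12.35 and 12.31 against 12.28, 12.31 and 12.35. Its fold change was 0.021 (95% interval -0.16 to 0.20), or -0.026 with median-centred arrays. Gabarapl2 was the member with the highest fold change. It read 10.71, 10.67 and 10.74 against 10.63, 10.61 and 10.63, with every knockout-labelled array above every wild-type array. The means of 10.71 ± 0.033 and 10.62 ± 0.014 (SD, n = 3) differed by 0.083 on the log2 scale, 1.06-fold, which did not pass (95% interval -0.093 to 0.26; limma, adjusted p = 0.785).

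Map1lc3a, the other LC3 gene measured, had a wider spread than the probe sets used for its relatives. It read 9.86, 9.39 and 9.62 on the knockout-labelled arrays, which was both the highest and the lowest value of all arrays, and 9.67, 9.63 and 9.67 on the wild-type arrays. The SD was 0.24 against 0.026, and the fold change of -0.034 (95% interval -0.35 to 0.28) became 0.083 without knockout-labelled replicate 2. Gabarap was measured by 2 probe sets. The brighter gave -0.044 (95% interval -0.23 to 0.14) and the other -0.11 (limma, adjusted p = 0.824), both with overlapping groups. The other also varied more over the arrays, from 9.18 to 9.58, where the brighter ran from 12.36 to 12.48.

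No cargo receptor passed the test. Of 6 measured genes 3 lay above and 3 below 0, with a median log2 fold change of 0.0032, which was 0.032 after renewed quantile normalization and -0.044 with median-centred arrays. Sqstm1 encodes p62, a receptor for ubiquitin-tagged cargo that also binds KEAP1, the inhibitor of NRF2, and is itself an NRF2 target in other systems. Its level was 11.46, 11.45 and 11.38 on the knockout-labelled arrays and 11.38, 11.48 and 11.53 on the wild-type arrays. The arrays interleaved, and the fold change was -0.034 (95% interval -0.23 to 0.16; limma, adjusted p = 0.932), an interval whose upper limit lies under the lower limit of 1.69 for Hmox1. A difference between Sqstm1 and Hmox1 was not tested.

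Other ubiquitin-binding receptors did not pass either. Nbr1 was at -0.008 (95% interval -0.21 to 0.19). Tax1bp1 had the highest value of the step, 0.029 (95% interval -0.16 to 0.22), from 9.70, 9.72 and 9.80 against 9.76, 9.69 and 9.67, and -0.018 with median-centred arrays. Calcoco1, a receptor for endoplasmic reticulum, was at 0.021. Of the receptors on the outer membrane of mitochondria, Bnip3 had the lowest value of the step. It read 8.70, 8.81 and 8.80 against 8.94, 8.78 and 8.90, with wild-type replicate 2 inside the knockout-labelled range, and the fold change was -0.10 (95% interval -0.31 to 0.10; limma, adjusted p = 0.774). Fundc1, a further mitochondrial receptor, was at 0.014 (95% interval -0.21 to 0.24).

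Members grouped by a factor known to act on them were likewise not called. Of 7 genes linked to NRF2 in other systems (Sqstm1, Ulk1, Atg2b, Atg4d, Atg5, Atg7 and Gabarapl1), 3 lay above and 4 below 0, with a median log2 fold change of -0.03. That median was 0.012 after renewed quantile normalization, -0.077 with median-centred arrays (0 of 7 above 0) and 0.00014 without wild-type replicate 3. For 4 genes linked to TFEB (Sqstm1, Map1lc3b, Uvrag and Wipi1) the counts were 1 and 3, with a median of -0.021. They were 2 and 2 after renewed quantile normalization (0.00065), 0 and 4 with median-centred arrays (-0.068) and 3 and 1 without wild-type replicate 3 (0.01). For 8 measured genes linked to FOXO3 (Map1lc3b and Gabarapl1 above 0, and Atg12, Atg4b, Becn1, Pik3c3, Ulk2 and Bnip3 below) they were 2 and 6, with a median of -0.081. That median was -0.042 after renewed quantile normalization, -0.13 with median-centred arrays (0 of 8 above 0) and -0.037 without wild-type replicate 1. Over all genes in the members' range of level the median was -0.035 as deposited, -0.0042 after renewed quantile normalization and -0.082 with median-centred arrays.

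The members varied less between replicates than genes at large. The pooled SD within genotype had a median of 0.07 over the members, 0.088 over all genes in the same range of level and 0.13 over all genes. Knockout-labelled replicate 2 gave the lowest reading for 14 of the 37 members (37.8%) and the highest for 1, while it was lowest for 24.6% of all genes. That share was not counted over genes in the members' range of level. Leaving this array out moved the share with a higher mean from 33.2% to 38.9% of those genes, and from 27% to 40.5% of members. The mean deviation of the members from the wild-type mean was -0.082 on that array, -0.017 and -0.014 on knockout-labelled replicates 1 and 3, and 0.015, 0.0079 and -0.023 on wild-type replicates 1 to 3. Replicate 2 was lowest in initiation (-0.099), nucleation (-0.097), membrane supply (-0.12) and conjugation (-0.083), and not in cargo receptors, where knockout-labelled replicate 1 was (-0.04).

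The same array stood apart in cell type markers. Its score, taken as for the members, was -0.21 for oligodendrocyte markers (7 of 8 measured), where the other arrays ran from -0.051 to 0.089. For 6 of 7 cortex and hippocampus markers it was 0.59, where the others ran from -0.20 to 0.14. On that array Neurod2 read 8.76 against a wild-type mean of 7.28, Neurod6 6.41 against 5.31 and Slc17a7 10.34 against 9.53. Emx1 (5.48 against 5.26) and Tbr1 (5.03 against 4.95) lay closer, and Prox1 was lower (8.53 against 8.67). Meningeal fibroblast markers (6 of 6) scored -0.55 there and -0.50 on wild-type replicate 1, against -0.10 to 0.27 elsewhere. Endothelial markers (6 of 6) scored from -0.21, on that array, to -0.048 under the knockout label, and between -0.04 and 0.072 in wild type. The groups were apart by a narrow margin, at -0.048 and -0.04. The median log2 fold change of these markers was -0.064, and -0.024 after renewed quantile normalization. Without knockout-labelled replicate 2 it was -0.00018, with 3 above and 3 below 0. Astrocyte and neuron markers ran from -0.065 to 0.068 and from -0.056 to 0.069 over all arrays, and their arrays interleaved. Microglia markers ran from -0.032 to 0.096, and dopaminergic neuron markers from -0.11 to 0.30, both with their 2 highest scores on knockout-labelled replicates 1 and 3. Of the 8 dopaminergic markers 6 lay above 0, and Pitx3 (-0.035) and Foxa1 (-0.14) lay below. Their median log2 fold change was 0.16, or 0.072 without knockout-labelled replicate 3, and 0 were called. Hypothalamic markers (6 of 6) varied most and had the widest difference between genotypes of these marker lists, with all 6 below 0 and a median log2 fold change of -1.25. Their scores were -0.53, -0.77 and -1.99 on knockout-labelled replicates 1 to 3 and -0.66, -0.14 and 0.80 on wild-type replicates 1 to 3, so that the extremes were the arrays numbered 3, and the groups overlapped. Trh, which encodes thyrotropin-releasing hormone, was the 1 marker of that list at an unadjusted p under 0.05 and with separate groups, at -1.59 (95% interval -2.96 to -0.21; limma, adjusted p = 0.569). The part of these differences in the members' values was not tested.

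**Figure D4:**
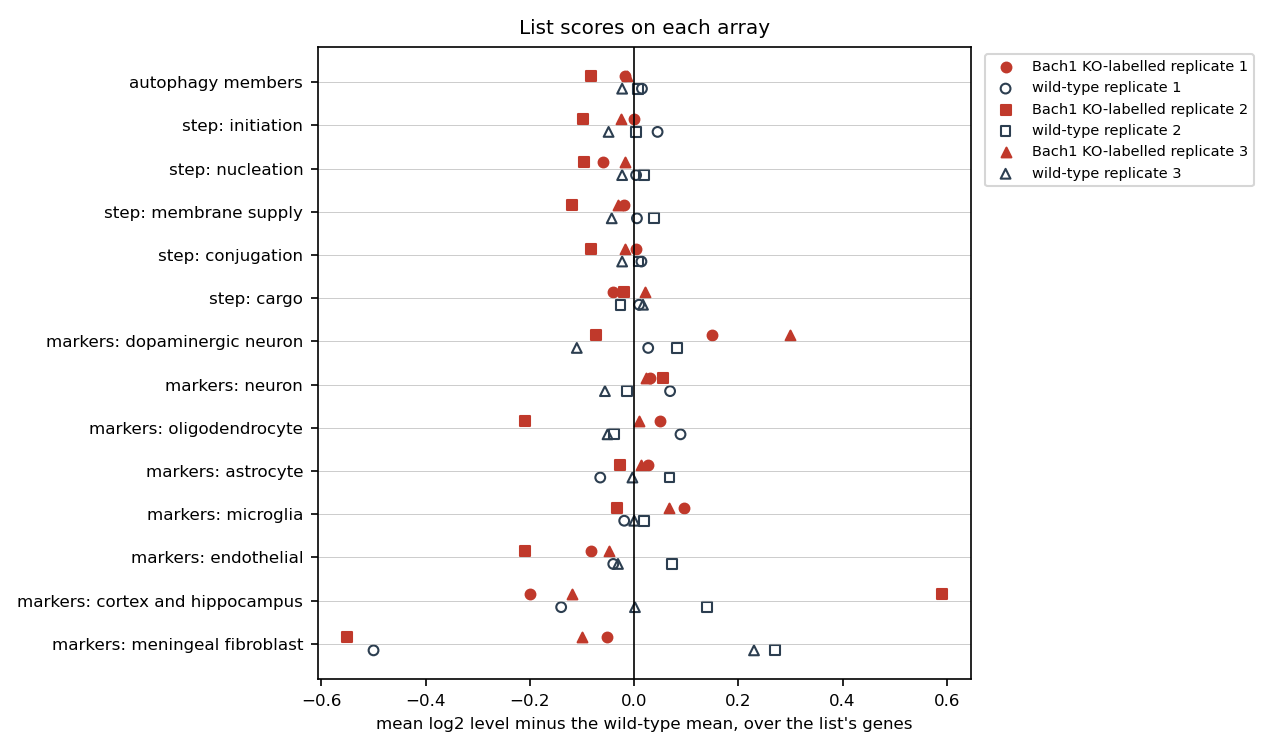
Mean log2 level minus the wild-type mean (horizontal axis) over the autophagy genes, each step and each cell type marker list other than the hypothalamic one, with 1 point per array; filled points are knockout-labelled arrays, open points wild-type arrays, and the shape gives the replicate. Autophagy scores lie between -0.12 and 0.045, and knockout-labelled replicate 2 is the lowest for 4 of the 5 steps.

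The wider pathway was also without a called gene. Of 58 measured genes that regulate autophagy, bind its complexes, fuse its vesicles with lysosomes or serve as further receptors, 21 lay above and 37 below 0, 0 were called and 0 reached an unadjusted p under 0.05 (limma). After renewed quantile normalization 28 lay above 0, and with median-centred arrays 10 did. Their median log2 fold change as deposited was -0.03, and the values ran from -0.20 to 0.21. By group, 6 of 15 signalling and transcription genes lay above 0, as did 5 of 14 complex partners, 5 of 14 fusion genes and 5 of 15 further receptors. Separated arrays were seen for 3 in the higher and 5 in the lower direction, near the shares of all genes given above.

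The 4 genes of that wider list with the smallest unadjusted p were Rubcnl, Retreg1, Vps39 and Tecpr1. Rubcnl, a regulator of autophagosome maturation, read 5.05, 5.06 and 5.01 on the knockout-labelled arrays and 4.89, 4.70 and 4.90 on the wild-type arrays. It separated in the higher direction with a fold change of 0.21 (95% interval -0.0025 to 0.42; limma, adjusted p = 0.606), but it was dim, with a mean under 5.07, a level that 40% of probe sets do not reach. Retreg1, a receptor for endoplasmic reticulum, was at -0.18 (95% interval -0.41 to 0.053) with overlapping arrays. Vps39, a subunit of the tethering complex for lysosome fusion, read 9.33, 9.42 and 9.40 against 9.48, 9.57 and 9.53, separated, at -0.14 (95% interval -0.33 to 0.046). Tecpr1, which acts in autophagosome to lysosome fusion, read 7.57, 7.53 and 7.55 against 7.80, 7.64 and 7.65, separated as well, at -0.15 (95% interval -0.35 to 0.051).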

How the data were processed

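The deposited table holds the authors' log2 values for each probe set on each array, made with RMA per the submitters' processing notes. No source used here gives its version or annotation. RMA makes array distributions nearly equal, so a change common to most genes would be mostly removed. Small differences remained in the deposited values, with array medians from 5.58 to 5.69. Renewed quantile normalization moved the median log2 fold change of the members from -0.034 to 0.0073. Columns that belong to no sample numbered 0. Genes were named from the platform annotation (1 gene for 23521 probe sets, several for 1814, none for 16010), with symbols updated by Entrez identifier to RefSeq for 23328.

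All 41345 probe sets were fitted with limma 3.58.1 in R 4.3.3 (lmFit, eBayes; prior 2.21 degrees of freedom), 3 against 3 arrays, no covariates, with Benjamini-Hochberg adjustment over all and a threshold of 0.05. The fit was tested on simulated data, with changes larger than the difference of any member. That test therefore cannot show whether differences of the members' size would be found. Intervals are at 95%. Scores average, over the genes of a list, each array's level minus the gene's wild-type mean.

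Per-array values are given for 10 index genes, the highest and lowest member of each step and members whose groups do not overlap (or at an unadjusted p under 0.05), and values for the 4 other autophagy genes with the smallest unadjusted p. Per-array values of Atg16l1 were added after they were seen. The members and lists were chosen with earlier results of these data known. Alternatives were renewed quantile normalization, median-centred arrays, trend and robust variances, removal of dim probe sets, averaging of probe sets, array weights, the replicate number as a block and leaving out each array.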

Additional observations from a re-analysis of the deposited data

How the results depend on the processing

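In all 13 alternative settings 0 of the 37 members were called, and 0 reached an unadjusted p under 0.05 (limma); 0 of the other autophagy genes were called in the 12 of these settings in which they were refitted. The smallest adjusted p of a gene with per-array values by rule was 0.621. Of those 19 genes, 9 kept their sign in each setting and 10 did not. With median-centred arrays 1 member was higher and the median was -0.081, with -0.11 for nucleation, -0.074 for conjugation and -0.044 for cargo; Atg5 (-0.034), Map1lc3b (-0.03), Gabarapl1 (-0.026), Rb1cc1 (-0.0031), Atg2b (-0.0017) and Tax1bp1 (-0.018) changed sign. After renewed quantile normalization 19 were higher and the median was 0.0073, with -0.022, 0.015 and 0.032 for these steps; Atg7 (0.012) and Uvrag (0.031) changed sign. With array weights Atg5 was at -0.0027. Over all genes in the members' range of level the medians were -0.082 with median-centred arrays and -0.0042 after renewed quantile normalization. With 1 array left out, the number higher ran from 6 to 15 and the medians from -0.093 to -0.011 for initiation, -0.071 to -0.035 for nucleation, -0.087 to -0.021 for membrane supply and -0.033 to -0.0024 for conjugation. The cargo median ran from -0.014 to 0.01, and it turned without knockout-labelled replicate 3 (-0.014) or wild-type replicate 2 (-0.0098). Fold changes then ran from -0.023 to 0.071 for Atg5, -0.15 to 0.083 for Map1lc3a, -0.021 to 0.049 for Map1lc3b, -0.074 to 0.00014 for Sqstm1, -0.051 to 0.02 for Uvrag, -0.032 to 0.084 for Atg2b and -0.00056 to 0.054 for Tax1bp1. Why single arrays move these values was not tested.

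The labels do not say that the shared replicate numbers pair arrays, so the numbers were not taken as pairs. Deviations from the group means correlated over probe sets by 0.0864, -0.0326 and 0.0395 between same-numbered arrays. Between differently numbered arrays the values ran from -0.0832 to 0.0462. Deviations from means of only 3 arrays are tied to each other, so these values cannot exclude pairing. With the replicate block 0 members were called and 10 were higher, as without it. With 3 arrays per group, differences smaller than the interval half-widths of 0.18 to 0.39 on the log2 scale cannot be resolved.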
